A study of Arabidopsis thaliana with 48 samples.

Results

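Salt was added to excess light plus heat in wild-type seedlings of Arabidopsis thaliana accession Col-0 (WT), and messenger RNA of whole seedlings was compared between S+EL+HS (3 libraries) and EL+HS (3 libraries), 6 of the 48 libraries of the study. The libraries were chosen by their labels alone: genotype WT and treatment S+EL+HS or EL+HS. Both groups were 6 days old and had 1.5 h of light at 700 µmol m-2 s-1 (EL, excess light) and 1.5 h at 33 °C (HS, heat stress). The S+EL+HS seedlings had grown from the start on plates with 50 mM NaCl (S, salt), and the EL+HS seedlings on plates without it. The whole study had 8 treatments in WT and in a line labelled rap2.3, with a T-DNA insertion in RAP2.3, at 3 replicates each, and its title concerns the dependence of MYB51 and SIGMA3 on RAP2.3 under combined stress. WT control seedlings (CT) stood at 21 °C and 50 µmol m-2 s-1, and WT S seedlings stood under the same conditions on the salt plates. Each library was made from many pooled seedlings, so roots and shoots were measured together, and in such bulk samples fewer cells of a type and less RNA per cell cannot be told apart.

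Salt acts on a plant both by holding back water and by the sodium that enters its cells. Such stress raises abscisic acid (ABA), which binds PYR/PYL receptors, blocks clade A PP2C phosphatases and so frees kinases that activate ABF transcription factors on ABRE elements of promoters. DREB factors bind DRE elements (also called CRT) of many of the same genes. The products include dehydrins and other late embryogenesis abundant (LEA) proteins, hydrophilic proteins that protect membranes and enzymes in drying cells. Heat works mainly through heat shock factors and their chaperone targets, and excess light acts on the photosynthetic apparatus and its antioxidants.

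Promoters of 4 genes of the LEA, RD29, COR and dehydrin list are shown because the list is the classic readout of ABA and DREB signalling, and because all 4 genes rose (values below). Each is the window of 250 bases before the annotated gene start in RefSeq's annotation of TAIR10.1, 5′ to 3′ on the gene's own strand. Capitals mark the ABRE core ACGTG and the DRE core CCGAC, on either strand; where the ABRE core occurs on both strands of a palindrome, the matches overlap.
RD29A, chr5:21240467-21240716, plus strand: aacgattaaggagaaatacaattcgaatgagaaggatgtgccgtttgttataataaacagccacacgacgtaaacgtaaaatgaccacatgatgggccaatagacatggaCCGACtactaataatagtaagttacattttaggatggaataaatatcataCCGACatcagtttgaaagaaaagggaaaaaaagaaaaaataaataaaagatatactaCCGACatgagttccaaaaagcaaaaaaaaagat
COR15A, chr2:17712331-17712580, minus strand: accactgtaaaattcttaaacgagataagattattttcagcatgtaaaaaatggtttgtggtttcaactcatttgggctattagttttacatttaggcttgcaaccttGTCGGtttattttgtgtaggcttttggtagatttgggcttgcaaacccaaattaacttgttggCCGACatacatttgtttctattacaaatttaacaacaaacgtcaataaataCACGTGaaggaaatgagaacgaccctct
LEA4-5, chr5:2090431-2090680, minus strand: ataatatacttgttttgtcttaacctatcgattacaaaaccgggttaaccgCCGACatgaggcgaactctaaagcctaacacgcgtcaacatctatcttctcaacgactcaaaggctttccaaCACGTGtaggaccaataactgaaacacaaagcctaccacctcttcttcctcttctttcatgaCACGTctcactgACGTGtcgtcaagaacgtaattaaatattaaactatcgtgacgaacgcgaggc
EM1, chr3:19214472-19214721, plus strand: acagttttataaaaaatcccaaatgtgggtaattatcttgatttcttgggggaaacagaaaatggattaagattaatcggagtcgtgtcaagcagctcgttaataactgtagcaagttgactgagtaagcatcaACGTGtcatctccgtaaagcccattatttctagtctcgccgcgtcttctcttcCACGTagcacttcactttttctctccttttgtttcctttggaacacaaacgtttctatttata
The RD29A window held 3 DRE cores and the EM1 window 2 ABRE cores, while COR15A had 2 of each and LEA4-5 had 4 ABRE cores and 1 DRE core. An ABRE core was present in 70.0% of the 20 promoters of this list and in 23.9% of the 20605 promoters of genes tested. A DRE core was present in 40.0% of the list and in 12.9% of the genes tested. Over all genes that rose with added salt the ABRE core was in 26.1% of promoters, and over all that fell in 26.7%. These are letter matches and carry no test. Elements outside a window, on either side, were not counted. A core missing from a window therefore does not show that the gene lacks it.

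The unit is FPKM, fragments per kilobase of transcript normalised to the mapped total, which hides how many reads a value rests on. The sum of FPKM was between 790224 and 813502 in the EL+HS libraries and between 792826 and 808934 in the S+EL+HS libraries. Across genes, log2(FPKM + 1) of replicates correlated with Pearson's r between 0.9585 and 0.9699 within EL+HS and between 0.9723 and 0.9752 within S+EL+HS. Between the groups r was 0.949 to 0.9576. Median-of-ratios size factors were 0.904 to 0.977 in EL+HS and 1.033 to 1.053 in S+EL+HS and did not overlap. The scaling of a library therefore moved in step with the treatment, and the deposited values gave a median log2 change over all genes of 0.17, which became 0.03 after rescaling. Below, "rose" and "fell" are used only of genes that passed limma's test (Benjamini-Hochberg adjusted p under 0.05) in the same direction both on the deposited scale and after rescaling. Such a call is said to be lost where it no longer held on both scales, in any of the 10 alternatives run on both, 6 of which leave out 1 library. Unless stated otherwise a value is on the deposited scale, and a log2 change is a difference of mean log2(FPKM + 1), S+EL+HS minus EL+HS, a scale that makes changes of genes near 0 look smaller.

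Of 20744 genes tested, 1228 rose (5.92%) and 985 fell (4.75%) when salt was added to light plus heat. The counts of called list members below are to be set against these shares. The median log2 change was 0.78 among all genes that rose and -0.68 among all that fell. Among the former 338 changed by 2-fold or more, and among the latter 227. The 3 and 3 libraries did not overlap for 1209 of the genes that rose and 968 of those that fell. On the deposited scale alone 3901 genes were called (18.8%), of which 74.8% were higher under S+EL+HS, and after rescaling 2766 were called (13.3%), of which 44.4% were higher. The balance of higher and lower genes thus followed the scaling. Counts also depended on single libraries: 601 genes rose without S+EL+HS replicate 3, 623 without EL+HS replicate 2, 670 without S+EL+HS replicate 1 and 755 without S+EL+HS replicate 2. Among genes that fell, 585 were called without EL+HS replicate 2 and 606 without S+EL+HS replicate 3.

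**Figure D1:**
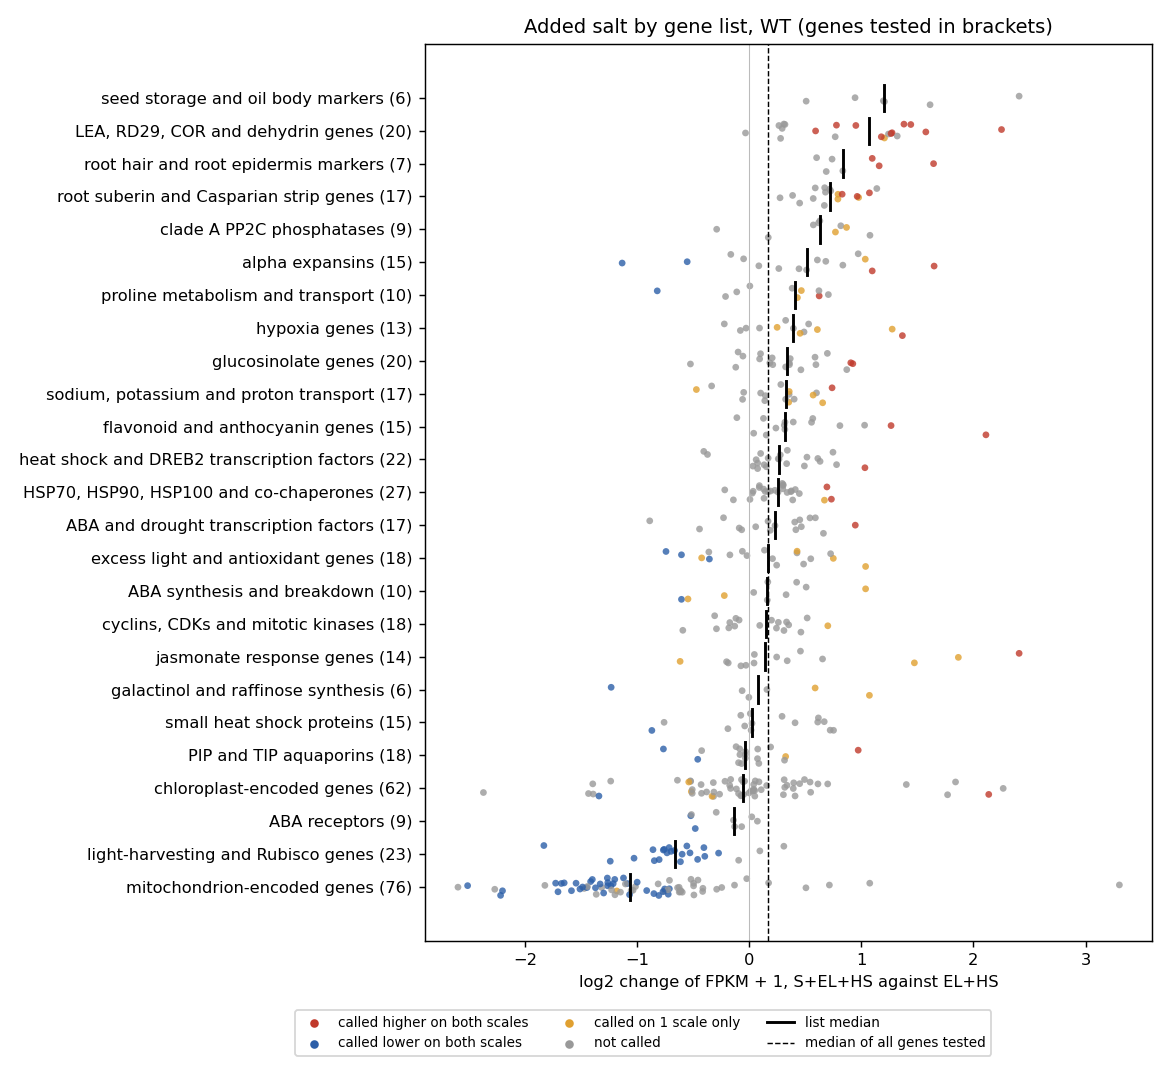
Log2 change of FPKM + 1 with added salt (x axis) for every tested gene of each list (y axis, number of tested genes in brackets), deposited scale; each point is 1 gene, coloured by its call, short bars are list medians and the dashed line is the median of all genes (0.17). LEA genes and root markers lie mostly to the right of the dashed line, light-harvesting and mitochondrion-encoded genes mostly to the left (medians -0.67 and -1.06), and small heat shock proteins around 0.

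All calls among LEA, RD29, COR and dehydrin genes were upward. Of the 20 genes, all tested, 10 rose and 0 fell, with a median log2 change of 1.07 against 0.17 for all genes, and 19 of 20 changes were above 0, as were 69.4% of those of all genes. KIN1 had FPKM values of 40.0, 28.4 and 36.2 under EL+HS and of 104, 102 and 109 under S+EL+HS. KIN1 encodes a small hydrophilic protein of the cold and drought response, and its salt libraries all lay above the others (log2 change 1.58 ± 0.29, adjusted p 0.0016). RD29A had FPKM values of 25.5, 22.5 and 17.82 under EL+HS and of 59.3, 60.6 and 43.7 under S+EL+HS. RD29A is the classic desiccation-responsive gene with the DRE cores shown above, and its change was 1.27 ± 0.32 (adjusted p 0.0109). RD22 measured 148, 103 and 95.0 FPKM in EL+HS and 314, 266 and 245 FPKM in S+EL+HS. RD22, an ABA-induced BURP-domain protein, changed by 1.27 ± 0.29 (adjusted p 0.00609), again without overlap. The calls of KIN1 and RD22 held in all 10 alternatives, and that of RD29A was lost in 4.

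Further members that rose were KIN2, a close relative of KIN1, the dehydrin ERD10 and the membrane protein COR413-PM1. KIN2 had FPKM values of 292, 212 and 222 under EL+HS and of 457, 413 and 529.8 under S+EL+HS. ERD10 measured 94.8, 85.9 and 95.1 FPKM in EL+HS and 150.1, 168 and 157 FPKM in S+EL+HS. COR413-PM1 had FPKM values of 248, 286 and 264 under EL+HS and of 391, 372 and 446 under S+EL+HS. All S+EL+HS libraries lay above all EL+HS libraries for these 3 genes, with log2 changes of 0.95, 0.78 and 0.59. Their calls were lost in 3, 7 and 4 of 10 alternatives. The group 4 LEA gene LEA4-5 and the embryonic LEA gene EM1 were more uneven. LEA4-5 had FPKM values of 22.8, 14.3 and 17.1 under EL+HS and of 96.2, 44.0 and 29.2 under S+EL+HS. EM1 had FPKM values of 0.890, 0.383 and 0.543 under EL+HS and of 19.7, 3.89 and 3.31 under S+EL+HS. In both genes S+EL+HS replicate 1 was the highest library by far, yet the groups did not overlap (log2 changes 1.44 ± 0.37, adjusted p 0.0118, and 2.25 ± 0.43, adjusted p 0.00214). The LEA4-5 call was lost with the compared libraries alone, without S+EL+HS replicate 1 and without EL+HS replicate 2 or 3, whereas EM1 held in all 10 alternatives.

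COR15A and COR15B, chloroplast LEA proteins, completed the 10. COR15A measured 15.6, 3.75 and 7.24 FPKM in EL+HS and 31.5, 27.8 and 11.2 FPKM in S+EL+HS. COR15B had FPKM values of 3.52, 1.59 and 3.88 under EL+HS and of 10.4, 7.11 and 6.18 under S+EL+HS. The COR15A groups overlapped, since S+EL+HS replicate 3 lay below EL+HS replicate 1, and its call was lost in 8 of 10 alternatives. The COR15B call was lost in 6. RD29B passed on the deposited scale alone (adjusted p 0.0468, rescaled 0.102). COR47 measured 301, 402 and 379 FPKM in EL+HS and 414, 405 and 477 FPKM in S+EL+HS. ERD14 had FPKM values of 343, 447 and 408 under EL+HS and of 456, 455 and 542 under S+EL+HS. For these 2 abundant dehydrins the groups did not overlap, but the changes (0.27 and 0.28) did not pass. RAB18, LTI30, XERO1, LEA14, LEA7, LEA18 and EM6 did not pass either. The count of 10 fell to 4 without S+EL+HS replicate 1, to 4 without EL+HS replicate 2, to 4 without EL+HS replicate 3, and to 6 without S+EL+HS replicate 2 or 3. EM1 and several other LEA genes are also expressed in seeds, and the summed FPKM of 10 seed storage and oil body genes was 15.8, 12.1 and 10.6 under EL+HS and 52.7, 13.8 and 61.5 under S+EL+HS, highest in replicates 1 and 3. Of these 10, 6 were tested, with a median log2 change of 1.202, and 0 were called. The cruciferin CRA1 was listed at 0.506, 0 and 0 FPKM under EL+HS and under S+EL+HS at 9.14, 0.195 and 17.57 FPKM, and CRB, SESA1, SESA3 and SESA4 were below the filter. The part of such tissue in the LEA values was not tested.

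Of 9 tested ABA receptors 2 fell and 0 rose (median log2 change -0.14). PYL4 had FPKM values of 161, 158 and 188 under EL+HS and of 101, 128 and 125 under S+EL+HS. PYL8 had FPKM values of 57.3, 73.0 and 61.0 under EL+HS and of 41.0, 46.0 and 49.0 under S+EL+HS. In both receptors the 3 salt libraries lay below the others (log2 changes -0.52 ± 0.12, adjusted p 0.00844, and -0.48 ± 0.15, adjusted p 0.034), and the PYL8 call was lost in 4 of 10 alternatives. Among the 9 clade A PP2C phosphatases, the negative regulators that ABA also induces, 0 were called on both scales, with a median log2 change of 0.63. ABI2 (0.77, adjusted p 0.0252) and HAI3 (0.87, adjusted p 0.0411) passed on the deposited scale alone. In ABA synthesis and breakdown 1 of 10 tested genes fell, the zeaxanthin epoxidase ABA1 (4.75% of all genes fell). In this list 3 others passed on 1 scale only, 1 of them higher on the deposited scale, and the median log2 change was 0.16. The largest log2 change of the list was 1.04, that of NCED3, a gene of ABA synthesis, which was not called on both scales. ABA1 measured 225, 252 and 210.0 FPKM in EL+HS and 164, 146 and 141 FPKM in S+EL+HS. Its libraries did not overlap (log2 change -0.60 ± 0.13, adjusted p 0.00415). Of 17 tested ABA and drought transcription factors 1 rose, the homeodomain-leucine zipper gene HB7 (5.92% of all genes rose). HB7 had FPKM values of 18.4, 16.2 and 19.2 under EL+HS and of 35.3, 39.7 and 31.5 under S+EL+HS. HB7 changed by 0.95 ± 0.25 (adjusted p 0.0156), and its call was lost without any 1 of the 6 libraries, with no filter and with replicate number as a block.

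Among 10 genes of proline metabolism and transport, the proline-degrading enzymes went in opposite directions: ProDH1, proline dehydrogenase, fell and P5CDH, the enzyme of the following step, rose. Of the other members 2 were higher on the deposited scale alone. ProDH1 measured 77.1, 108 and 67.9 FPKM in EL+HS and 42.3, 41.8 and 56.4 FPKM in S+EL+HS. P5CDH had FPKM values of 17.81, 16.4 and 20.9 under EL+HS and of 30.2, 26.2 and 30.02 under S+EL+HS. Neither pair of groups overlapped (log2 changes -0.82 ± 0.18, adjusted p 0.00583, and 0.62 ± 0.17, adjusted p 0.0156); the P5CDH call was lost in 4 of 10 alternatives. Of 6 tested genes of galactinol and raffinose synthesis 1 fell, DIN10, a dark-inducible gene of the raffinose synthase family. On the deposited scale alone 2 others were higher. A fit of the 6 compared libraries alone called GolS2 higher on both scales (log2 change 1.07, limma adjusted p 0.0134 and 0.0275 rescaled). It also called DIN10 lower, where 4.53% of all genes were higher and 4.99% lower. DIN10 had FPKM values of 269.7, 447 and 304 under EL+HS and of 133, 130.1 and 161 under S+EL+HS. It was lower in all 3 salt libraries (log2 change -1.23 ± 0.25, adjusted p 0.00301). Of 17 tested sodium, potassium and proton transport genes 1 rose, where 5.92% of all genes did, and 5 others passed on 1 scale only. The gene that rose was the endosomal cation/proton exchanger NHX6 (0.74 ± 0.20, adjusted p 0.0166, lost in 6 of 10 alternatives). NHX6 had FPKM values of 6.16, 3.21 and 5.45 under EL+HS and of 7.95, 9.30 and 8.82 under S+EL+HS. The sodium transporters SOS1 and HKT1 were not called on both scales.

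Light-harvesting and Rubisco genes fell together. Of 23 genes, all tested, 20 fell and 0 rose, with a median log2 change of -0.67 (rescaled -0.83). For each of the 20 the 3 S+EL+HS libraries lay below the 3 EL+HS libraries, and 98.3% of all genes that fell had no overlap either. The log2 changes of the 20 ran from -1.83 to -0.27. Together the 23 genes made up 11.4%, 12.3% and 10.8% of all FPKM under EL+HS and 8.43%, 8.75% and 7.81% under S+EL+HS, with no overlap (exact two-sided permutation p = 0.1, the smallest that 3 against 3 libraries can give, n = 3). Between 17 and 20 of the genes fell in every fit that left out 1 library, and LHCB1.2, LHCB4.1 and RBCS3B were those whose calls were lost in any of the 10 alternatives.

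The largest change among the 23 was that of LHCB2.3, an antenna protein of photosystem II. LHCB2.3 measured 431, 479.5 and 359.7 FPKM in EL+HS and 100.2, 135 and 119.7 FPKM in S+EL+HS. Its log2 change was -1.83 ± 0.24 (adjusted p 7.90e-05). LHCB1.5 had the highest FPKM of the 23 genes under EL+HS. LHCB1.5 had FPKM values of 12738, 16179 and 13206 under EL+HS and of 7886, 8012 and 7438 under S+EL+HS. It changed by -0.84 ± 0.13 (adjusted p 0.000381). All 4 antenna genes of photosystem I fell, LHCA1 most. LHCA1 measured 4312, 4487 and 3571 FPKM in EL+HS and 2324, 2355 and 2123 FPKM in S+EL+HS. Its change was -0.86 ± 0.093 (adjusted p 1.63e-05), and those of LHCA2, LHCA3 and LHCA4 were -0.60, -0.71 and -0.76.

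Genes of carbon fixation were split. RCA, the activase that keeps Rubisco working, fell. RCA had FPKM values of 7197, 7734 and 6674 under EL+HS and of 5368, 5009 and 4616 under S+EL+HS. The small subunit gene RBCS2B also fell. RBCS2B had FPKM values of 4374, 5096 and 4749 under EL+HS and of 3283, 3038 and 2497 under S+EL+HS. The changes were -0.53 ± 0.12 (adjusted p 0.00548) and -0.70 ± 0.12 (adjusted p 0.00123). RBCS3B fell as well (-0.40, adjusted p 0.0188), and its call was lost in 4 of 10 alternatives. RBCS1A had FPKM values of 9236, 9169 and 8654 under EL+HS and of 9817, 9839 and 9267 under S+EL+HS. RBCS1A did not pass (0.096, adjusted p 0.525), and neither did RBCS1B (0.31) or LHCB1.3 (-0.093). The LHCB1 genes, and likewise RBCS1B, RBCS2B and RBCS3B, are nearly identical in sequence, so the way reads were split among them is uncertain. LHCB1.5, LHCB2.3, LHCB3, LHCB4.2, LHCB6, LHCA4 and RCA also overlap a gene on the other strand.

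**Figure D2:**
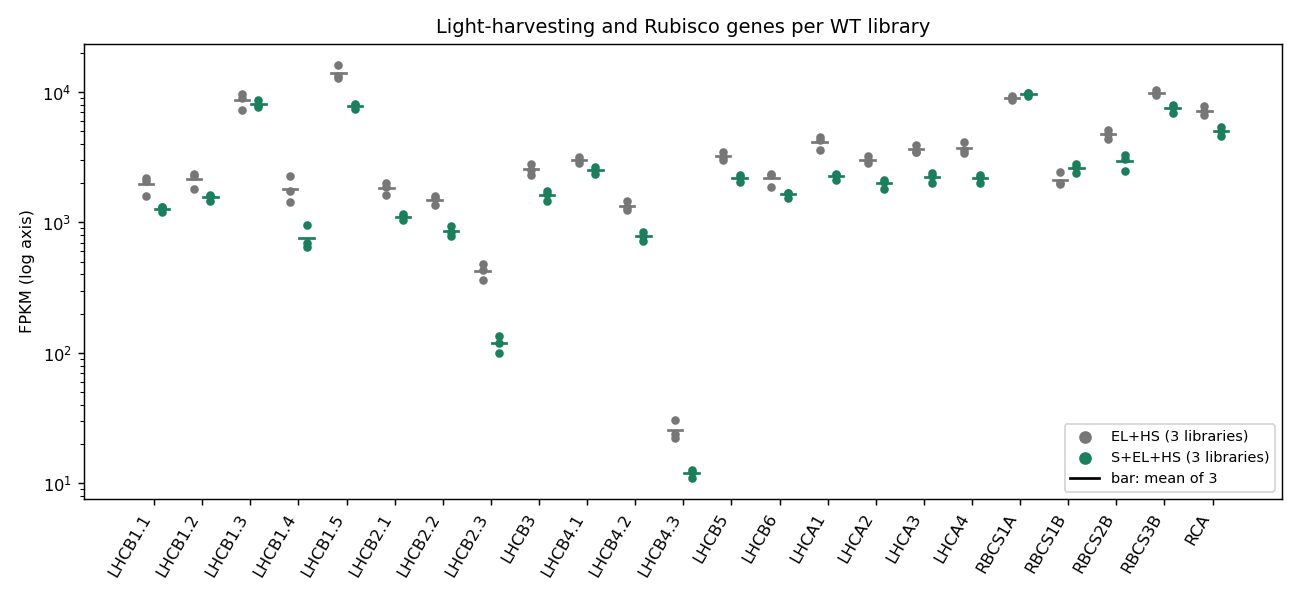
FPKM (y axis, log scale) of each light-harvesting and Rubisco gene (x axis) in the 3 EL+HS and 3 S+EL+HS libraries of WT; points are libraries and bars are means of 3. For 20 of the 23 genes the S+EL+HS points lie wholly below the EL+HS points; LHCB1.3 and RBCS1B overlap, and the RBCS1A points lie slightly above.

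Among 18 excess light and antioxidant genes 3 fell and 0 rose: tAPX, the ascorbate peroxidase of the thylakoid, and OHP1 and OHP2, small relatives of antenna proteins needed to assemble photosystem II. tAPX measured 91.8, 90.27 and 89.6 FPKM in EL+HS and 54.5, 59.4 and 48.1 FPKM in S+EL+HS. OHP2 had FPKM values of 282, 288 and 267 under EL+HS and of 227, 219 and 209 under S+EL+HS. Both genes were lower in every salt library (log2 changes -0.74 ± 0.10, adjusted p 0.000168, and -0.35 ± 0.082, adjusted p 0.00678). OHP1 changed by -0.60, and its call was lost without S+EL+HS replicate 3. OHP1 and OHP2 each overlap another gene on the other strand. In this list 4 others passed on 1 scale only, 3 of them higher on the deposited scale. A fit of the 6 libraries alone called ELIP2 higher on both scales (log2 change 0.73, limma adjusted p 0.00588), as were 4.53% of all genes. It called CAT2 lower (-0.42, limma adjusted p 0.0271) beside tAPX, OHP1 and OHP2, as were 4.99% of all genes.

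Root genes lay on the other side. All 17 root suberin and Casparian strip genes had a log2 change above 0 (median 0.72), as had 69.4% of all genes, and 3 of them rose: CASP4, a scaffold protein of the Casparian strip, MYB36, which switches on the CASP genes, and ASFT, a feruloyl transferase of suberin. ASFT measured 29.1, 32.2 and 36.7 FPKM in EL+HS and 57.2, 70.7 and 83.3 FPKM in S+EL+HS. ASFT was higher in all salt libraries (log2 change 1.07 ± 0.26, adjusted p 0.00847). CASP4 had FPKM values of 3.84, 7.27 and 10.1 under EL+HS and of 14.2, 13.8 and 13.7 under S+EL+HS. MYB36 had FPKM values of 2.22, 3.01 and 4.67 under EL+HS and of 6.60, 5.69 and 7.11 under S+EL+HS. These changes were 0.96 ± 0.26 (adjusted p 0.0173) and 0.83 ± 0.23 (adjusted p 0.0189). CASP1 and CASP2 passed on the deposited scale alone. The calls of CASP4 and MYB36 were each lost in 9 of 10 alternatives, all but the one without EL+HS replicate 3, and that of ASFT in 2. The count of 3 became 0 without EL+HS replicate 1 and without S+EL+HS replicate 3, and 1 with a pseudocount of 0.1, with no filter, with the compared libraries alone, with replicate number as a block and without replicate 2 of either group; it was 2 without S+EL+HS replicate 1 and 6 without EL+HS replicate 3. ASFT overlaps a gene on the other strand. In S against CT 16 of the 17 genes were called higher (median log2 change 1.64), in S+EL against EL 9 and in S+HS against HS 11. For added salt in the libraries labelled rap2.3 the count was 9. Of all genes 10.7%, 7.14%, 11.4% and 12.3% were called higher, in the same order.

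Of 8 root hair and root epidermis markers 7 were tested, all with a change above 0 (median 0.84; 69.4% of all genes), and 3 rose: the iron transporter IRT1, COBL9, needed for root hair growth, and the root hair expansin EXPA18. IRT1 had FPKM values of 5.25, 4.09 and 11.5 under EL+HS and of 21.6, 18.9 and 26.1 under S+EL+HS. COBL9 measured 1.09, 0.981 and 2.94 FPKM in EL+HS and 4.69, 4.71 and 4.59 FPKM in S+EL+HS. Neither gene's groups overlapped (log2 changes 1.65 ± 0.45, adjusted p 0.0167, and 1.16 ± 0.29, adjusted p 0.0109). The count of 3 became 0 without EL+HS replicate 1 or 2 and without S+EL+HS replicate 1 or 3, so the calls of IRT1 and COBL9 were lost in 4 of 10 alternatives. The EXPA18 groups overlapped and its call was lost in 8. NRT2.1 was below the filter. In S against CT all 7 tested markers were called higher (median log2 change 2.125), in S+EL against EL 1 and in S+HS against HS 6. For added salt in the libraries labelled rap2.3 the count was 7. Of all genes 10.7%, 7.14%, 11.4% and 12.3% were called higher, in the same order. The summed FPKM of the root hair markers was 88.2, 129.8 and 237 under EL+HS and 247, 211 and 298 under S+EL+HS, so the groups overlapped. The summed FPKM of the suberin and Casparian strip genes was 152, 222 and 277 under EL+HS and 325, 372 and 417 under S+EL+HS, with no overlap. Within EL+HS both sums were lowest in replicate 1 and highest in replicate 3. The latter sum was thus higher in the same 3 libraries in which antenna genes were lower, and the part of root-to-shoot proportion in either list was not tested.

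Growth genes changed one by one. Of 15 alpha expansins, proteins that loosen cell walls, EXPA10 and EXPA18 rose and EXPA6 and EXPA8 fell. EXPA10 had FPKM values of 38.6, 38.6 and 38.7 under EL+HS and of 112, 141 and 119 under S+EL+HS. EXPA8 measured 34.3, 41.2 and 34.2 FPKM in EL+HS and 14.8, 17.1 and 16.4 FPKM in S+EL+HS. EXPA10 was higher in each salt library (1.65 ± 0.20, adjusted p 3.61e-05) and EXPA8 was lower in each salt library (-1.13 ± 0.31, adjusted p 0.0174), with its call lost in 2 of 10 alternatives. Of 18 PIP and TIP aquaporins, water channels of the plasma membrane and the vacuole, PIP2;4 rose and PIP1;3 and TIP2;1 fell. PIP2;4 had FPKM values of 8.25, 8.81 and 14 under EL+HS and of 23.47, 16.9 and 22.5 under S+EL+HS. TIP2;1 had FPKM values of 1209, 1599 and 1294 under EL+HS and of 738, 794 and 869.8 under S+EL+HS. These groups did not overlap (0.97 ± 0.22, adjusted p 0.00601, and -0.76 ± 0.19, adjusted p 0.00922). The TIP2;1 call was lost without EL+HS replicate 2, that of PIP2;4 in 4 of 10 alternatives and that of PIP1;3 in 6. Of 18 cyclins, CDKs and mitotic kinases 0 were called on both scales and 1 on 1 scale (median 0.15).

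Small heat shock protein transcripts were abundant in both groups. Small heat shock proteins made up 3.19%, 2.89% and 2.50% of all FPKM under EL+HS and 2.91%, 3.06% and 3.10% under S+EL+HS, which overlapped (exact two-sided permutation p = 0.6, n = 3). Of 15 genes 1 fell and 0 rose, with a median log2 change of 0.03. The gene that fell, HSP15.4, was at a higher level under CT (46.7 FPKM on average) than under EL+HS. HSP15.4 had FPKM values of 26.9, 27.1 and 26.8 under EL+HS and of 11.5, 15.6 and 16.2 under S+EL+HS. Its change was -0.87 ± 0.18 (adjusted p 0.00364). For the others the shared spread of the 8 WT groups was large, with SE between 0.39 and 0.99 on the log2 scale, and changes of up to 0.76 in size did not pass.

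A fit of the 6 libraries alone gave different calls for this family: HSP23.5 and HSP23.6 of the mitochondrion and HSP26.5 were higher on both scales, as were 4.53% of all genes in that fit, and HSP18.2 was lower beside HSP15.4, as were 4.99% of them. HSP23.6 measured 954, 950.0 and 859 FPKM in EL+HS and 1525, 1493 and 1541 FPKM in S+EL+HS. HSP18.2 had FPKM values of 4752, 4108 and 3851 under EL+HS and of 2456, 2761 and 2292 under S+EL+HS. The salt libraries lay wholly above the others in HSP23.6 and wholly below in HSP18.2 (limma adjusted p of 0.00353 and 0.00877 in the fit of 6 libraries, 0.598 and 0.581 over all WT libraries). HSP21 measured 903, 810.2 and 759 FPKM in EL+HS and 772, 870.1 and 709 FPKM in S+EL+HS. HSP21, the small heat shock protein of the chloroplast, overlapped and passed in neither fit. Of 27 HSP70, HSP90, HSP100 and co-chaperone genes 2 rose, mtHSC70-1 of the mitochondrion and HSP90.4 of the cytosol (5.92% of all genes rose). mtHSC70-1 had FPKM values of 56.8, 47.3 and 56.1 under EL+HS and of 86.5, 94.8 and 86.5 under S+EL+HS. HSP90.4 had FPKM values of 11, 9.49 and 9.85 under EL+HS and of 17.2, 15.5 and 18.3 under S+EL+HS. Both were higher in every salt library (0.73 ± 0.16, adjusted p 0.00459, and 0.69 ± 0.17, adjusted p 0.00844). The mtHSC70-1 call held in all 10 alternatives, and that of HSP90.4 was lost in 4, each without 1 library. HSP90.4 is nearly identical to HSP90.2 and HSP90.3, so its reads are uncertain. Of 22 heat shock and DREB2 transcription factors 1 rose, DREB2C (1.03 ± 0.30, adjusted p 0.0216), whose groups overlapped and whose call was lost in 7 of 10 alternatives.

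Many mitochondrion-encoded transcripts fell and none rose, at a small share of all FPKM in these messenger RNA libraries. How far such values follow the level of RNA in mitochondria was not tested. Of 152 identifiers 76 passed the filter, and of these 34 fell and 0 rose, with a median log2 change of -1.06. The median over the 76 genes of the group's mean FPKM was 0.345 under CT, 0.27 under S, 3.71 under EL+HS and 1.74 under S+EL+HS. The filter kept genes largely through the groups in which they were high. ATMG01390 had FPKM values of 78.1, 85.3 and 86.9 under EL+HS and of 47.0, 32.02 and 40.3 under S+EL+HS. ATMG00020 measured 65.1, 77.7 and 85.9 FPKM in EL+HS and 40.0, 21.9 and 33.9 FPKM in S+EL+HS. In all 34 genes each S+EL+HS library was below all EL+HS libraries, and 98.3% of all genes that fell had no overlap either. ATMG01390 changed by -1.07 ± 0.20 (adjusted p 0.00207) and ATMG00020 by -1.26 ± 0.22 (adjusted p 0.000951). The count was 18 with a pseudocount of 0.1, 20 without EL+HS replicate 2 and 22 without S+EL+HS replicate 3. The share of all FPKM in the 152 identifiers overlapped between the groups, at 0.105%, 0.127% and 0.126% under EL+HS and 0.0495%, 0.155% and 0.0313% under S+EL+HS (exact two-sided permutation p = 0.4, n = 3). In S+EL+HS replicate 2 a single identifier, ATMG01380, was listed at 959 FPKM, and at 0 in the other 5 libraries. Of 133 chloroplast-encoded identifiers 62 were tested, 1 rose and 1 fell (median -0.05), and their share of FPKM was 0.0871% ± 0.0231 against 0.0771% ± 0.0207 (SD, n = 3; exact two-sided permutation p = 0.6).

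The 10 largest increases by the naming rule (called on both scales, at least 5 FPKM, no overlap of libraries) included several small secreted proteins. AT5G33355 and AT1G34047 encode defensin-like proteins, and LTP4 and AT2G37870 belong to the lipid-transfer protein family. AT5G33355 had FPKM values of 9.32, 4.98 and 9.16 under EL+HS and of 123, 82.9 and 171 under S+EL+HS. AT2G37870 measured 1.94, 0.717 and 3.61 FPKM in EL+HS and 44.2, 39.8 and 42.5 FPKM in S+EL+HS. Among the 10 they had the largest changes of genes with a value above 0 in EL+HS (3.83 ± 0.28, adjusted p 1.98e-07, and 3.92 ± 0.45, adjusted p 3.02e-05). LTP4 had FPKM values of 3.59, 0.636 and 2.45 under EL+HS and of 50.2, 16.1 and 8.40 under S+EL+HS. LTP4 varied widely among the salt libraries, all of which were above EL+HS (2.77 ± 0.56, adjusted p 0.00325). MRN1 had FPKM values of 0.989, 0.356 and 1.80 under EL+HS and of 13.8, 16.6 and 21.8 under S+EL+HS. MRN1 is marneral synthase, which makes a triterpene (3.21 ± 0.36, adjusted p 2.60e-05). AT3G05400 had FPKM values of 4.097, 2.72 and 3.53 under EL+HS and of 26.96, 32.7 and 24.5 under S+EL+HS. AT3G05400 encodes a transporter of the major facilitator superfamily (2.71 ± 0.20, adjusted p 1.98e-07).

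AT5G04120, of the phosphoglycerate mutase family, was listed at 0 in all EL+HS libraries and under S+EL+HS at 5.29, 8.95 and 5.22 FPKM (adjusted p 0.000229). The small nucleolar RNA AT4G39363 was listed at 0 in all EL+HS libraries and under S+EL+HS at 697, 277 and 909 FPKM (adjusted p 0.00776). It was also listed at 0 under CT and S. Of the 6 libraries labelled rap2.3 with light plus heat, EL+HS replicate 2 had 746 FPKM and the other 5 were listed at 0, and it was not called there. FPKM of so short an RNA divides by a small length, and how few fragments lie behind these values is unknown. AT5G04120 and AT1G34047 each overlap another gene on the other strand, and whether strand was used in quantification is not given in the sources used here.

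LSU1, a marker of sulfur starvation, and SDI1, a repressor of glucosinolate synthesis induced by low sulfur, completed the 10 with AT1G34047. LSU1 measured 12.8, 5.14 and 5.40 FPKM in EL+HS and 63.3, 88.5 and 81.1 FPKM in S+EL+HS. SDI1 had FPKM values of 9.54, 5.50 and 10.4 under EL+HS and of 38.4, 94.8 and 49.7 under S+EL+HS. Both were higher in every salt library (3.25 ± 0.32, adjusted p 4.13e-06, and 2.64 ± 0.33, adjusted p 5.93e-05). A list of 16 genes of the sulfur-starvation response was then written after these values had been seen, so it gives description only. Where 5.92% of all genes rose and 4.75% fell, 11 of these 16 rose and 0 fell. They include the sulfate transporters SULTR1;2 and SULTR4;2 and the adenosine phosphosulfate reductases APR1 and APR3, which reduce sulfate. SULTR1;2 measured 32.6, 33.6 and 54.5 FPKM in EL+HS and 67.3, 102 and 97.2 FPKM in S+EL+HS. APR3 had FPKM values of 114, 85.9 and 116 under EL+HS and of 245, 333 and 251 under S+EL+HS. Their log2 changes were 1.14 ± 0.28 (adjusted p 0.00971) and 1.38 ± 0.22 (adjusted p 0.000469), and the SULTR1;2 call was lost in 4 of 10 alternatives. LSU2, LSU3, GGCT2;1, which degrades glutathione, the serine hydroxymethyltransferase SHM7 and the beta-glucosidase BGLU28 rose by 1.79, 2.03, 2.24, 1.36 and 2.37. LSU4, SDI2, APR2, SULTR1;1 and SULTR2;1 did not pass. Of the same 16 genes 15 were called higher for salt at control and 12 for added salt in the libraries labelled rap2.3 (10.7% and 12.3% of all genes).

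**Figure D3:**
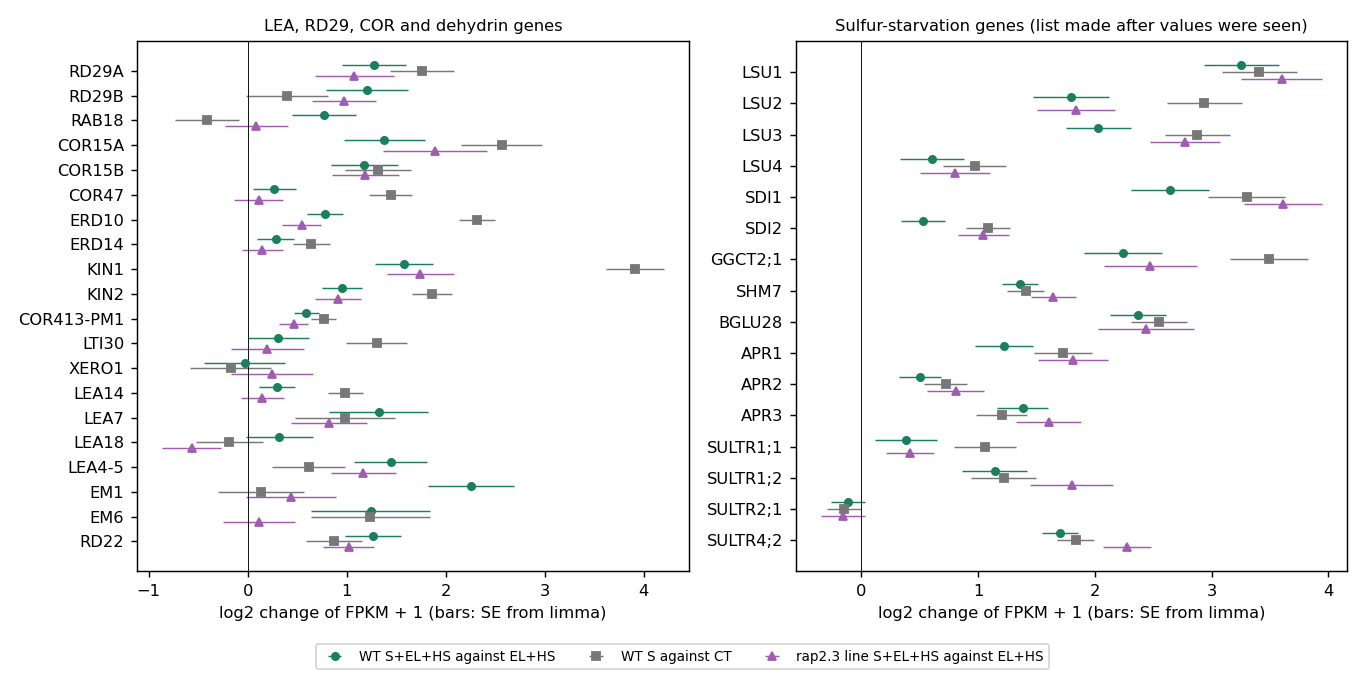
Log2 change of FPKM + 1 (x axis, bars are limma's SE) of the 20 LEA, RD29, COR and dehydrin genes (left) and of 16 sulfur-starvation genes listed after values were seen (right); circles are WT S+EL+HS against EL+HS, squares WT S against CT and triangles the same comparison as the circles in the libraries labelled rap2.3 (3 libraries per group). Among the circles at the right LSU1 (3.25) and SDI1 (2.64) lie farthest out, and at the left KIN1 has 1.58 with light plus heat and 3.91 at control.

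The 10 largest decreases were led by plant defensins, small antifungal proteins that serve as markers of the jasmonate and ethylene branch of defence. PDF1.3 had FPKM values of 12.5, 44.5 and 53.9 under EL+HS and of 0.500, 0 and 0 under S+EL+HS. PDF1.2 had FPKM values of 3.75, 23.8 and 29.9 under EL+HS and of 0, 0 and 0 under S+EL+HS. PDF1.2b measured 2.77, 14.1 and 19.3 FPKM in EL+HS and 0.390, 0 and 0 FPKM in S+EL+HS. PDF1.3 and PDF1.2b were near 0 in the salt libraries, with log2 changes of -4.82 ± 0.56 (adjusted p 3.02e-05) and -3.23 ± 0.48 (adjusted p 0.000264). PDF1.2 and PDF1.2c were listed at 0 in all 3 of them and so have no fold (adjusted p 0.00167 and 0.000624). In EL+HS, replicate 1 was the lowest of the 3 for each of them. These 4 genes are near copies, so they are not independent and reads may be shared among them. The other fall of a known gene was that of DIN11, a dark-inducible oxygenase. DIN11 had FPKM values of 7.24, 7.72 and 25.4 under EL+HS and of 0.277, 0 and 0.374 under S+EL+HS. It changed by -3.36 ± 0.53 (adjusted p 0.000489). AT3G16670 measured 26.8, 30.5 and 58.3 FPKM in EL+HS and 5.67, 5.63 and 4.33 FPKM in S+EL+HS. AT3G16670 encodes a protein of the Pollen Ole e 1 and extensin family (-2.59 ± 0.32, adjusted p 5.37e-05). The uncharacterized AT5G42530 changed by -2.69 ± 0.52 (adjusted p 0.00212). AT2G08530, AT3G03535 and AT2G44130 each overlap another gene on the other strand, and the calls of AT3G03535 and AT2G44130 were lost in 4 and 7 of 10 alternatives.

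**Figure D4:**
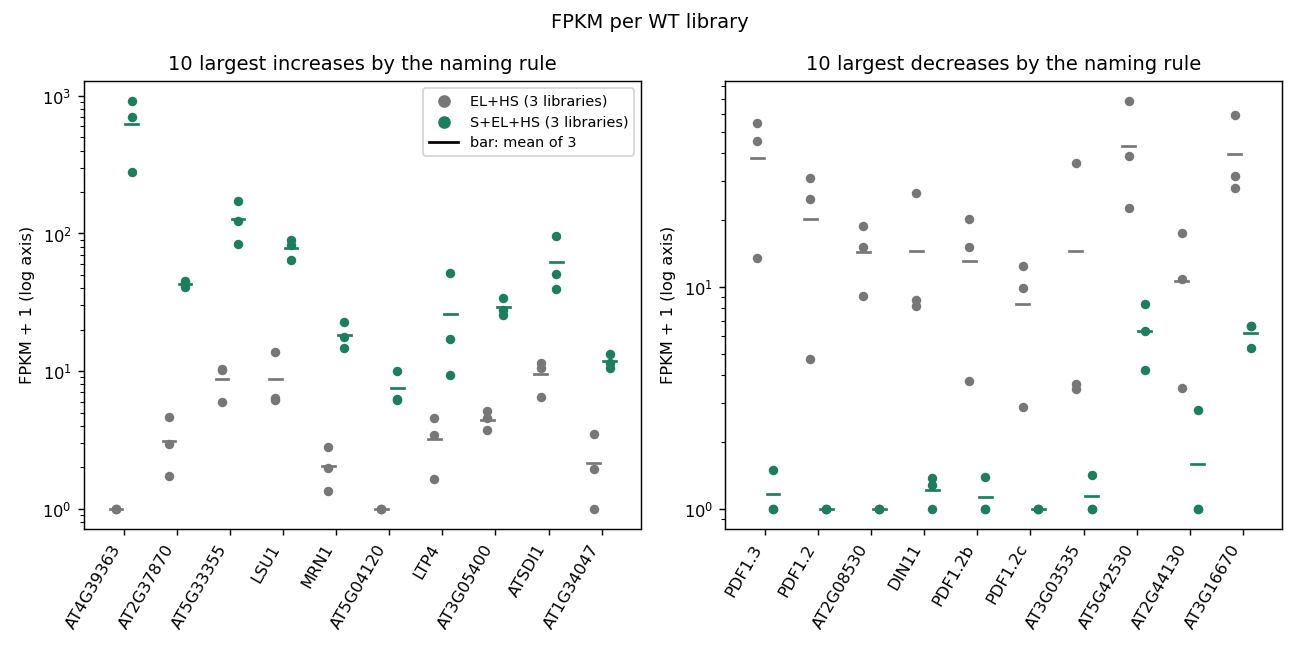
FPKM + 1 (y axis, log scale) of the 10 genes with the largest increases (left) and the 10 with the largest decreases (right) in the 3 EL+HS and 3 S+EL+HS libraries of WT; points are libraries and bars are means of 3. No gene has overlapping groups, which was a condition of the naming rule, and values at 1 are genes listed at 0.

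Genes of specialised metabolism and hormones gave single calls, where 5.92% of all genes rose. Of 14 tested jasmonate response genes 1 rose, LOX2, a lipoxygenase of jasmonate synthesis in the chloroplast. LOX2 had FPKM values of 59.2, 58.2 and 74.4 under EL+HS and of 324, 392.1 and 314 under S+EL+HS. LOX2 was higher in every salt library (2.41 ± 0.22, adjusted p 1.37e-06), and the vegetative storage proteins VSP1 (1.87) and VSP2 (1.47) passed on the deposited scale alone. Of the JAZ repressors, which jasmonate also induces, 0 rose or fell on both scales. A fit of the 6 libraries alone also called VSP1 and VSP2 higher on both scales, and JAZ9 lower. In that fit 4.53% of all genes were higher and 4.99% lower. Of 15 flavonoid and anthocyanin genes 2 rose, the MYB factors PAP1 and PAP2 that switch on anthocyanin synthesis. PAP1 had FPKM values of 2.67, 0.294 and 0.864 under EL+HS and of 6.18, 11.8 and 6.75 under S+EL+HS. PAP1 changed by 2.11 ± 0.41 (adjusted p 0.00234), and the call of PAP2 (1.27 ± 0.41, adjusted p 0.0355) was lost in 8 of 10 alternatives. The synthesis enzymes of that list did not pass. Of 20 glucosinolate genes 2 rose, MYB34 and MYB122, regulators of indole glucosinolates. MYB34 had FPKM values of 28.3, 21.2 and 31.3 under EL+HS and of 48.5, 56.4 and 49.6 under S+EL+HS. MYB34 changed by 0.93 ± 0.23 (adjusted p 0.00967) and MYB122 by 0.91 (adjusted p 0.0232), and their calls were lost in 2 and 7 of 10 alternatives. Without EL+HS replicate 2 or S+EL+HS replicate 2 the count was 0. Of 13 hypoxia genes 1 rose, HRE2, a relative of RAP2.3 in group VII of the ethylene response factors, and 4 others passed on 1 scale only. HRE2 was listed at 0 in all EL+HS libraries and under S+EL+HS at 1.44, 0.817 and 2.88 FPKM (adjusted p 0.00691), and its call was lost without S+EL+HS replicate 3 and with the compared libraries alone.

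The genes of the series title did not pass on both scales. RAP2.3 measured 52.9, 61.3 and 48.7 FPKM in EL+HS and 77.4, 62.0 and 86.1 FPKM in S+EL+HS. RAP2.3 passed on the deposited scale (0.46 ± 0.15, adjusted p 0.0417) and not after rescaling (adjusted p 0.268). MYB51 had FPKM values of 6.86, 4.69 and 8.66 under EL+HS and of 4.61, 4.601 and 3.63 under S+EL+HS. MYB51, the third regulator of indole glucosinolates, was lower in every salt library but did not pass (-0.52 ± 0.29, adjusted p 0.204). SIG3 measured 31.2, 31.1 and 28.4 FPKM in EL+HS and 27.2, 25.3 and 24.7 FPKM in S+EL+HS. SIG3, which directs the plastid RNA polymerase to its promoters, passed after rescaling alone (log2 change -0.38, adjusted p 0.0256; deposited -0.22, adjusted p 0.0936).

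Whether salt did the same in the absence of light plus heat was asked in libraries that the main comparison does not share. Of the 1228 genes that rose, 638 (52.0%) were also called higher in S against CT, where 10.7% of all genes were. Of the 985 that fell, 547 (55.5%) were also called lower there, against 5.17% of all genes, and 1 was called the opposite way. In S+EL against EL the shares were 45.4% and 49.4% (7.14% and 4.51% of all genes), and in S+HS against HS 45.4% and 47.8% (11.4% and 7.37%), where 5 genes that rose and 2 that fell were called the opposite way. Across genes the log2 change with light plus heat correlated with that at control with Pearson's r = 0.591 (Spearman's rho = 0.607), with that at light with r = 0.62 and with that at heat with r = 0.456. These describe 20744 genes that share their libraries and are no replicates, and the WT fits share an estimate of the spread.

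**Figure D5:**
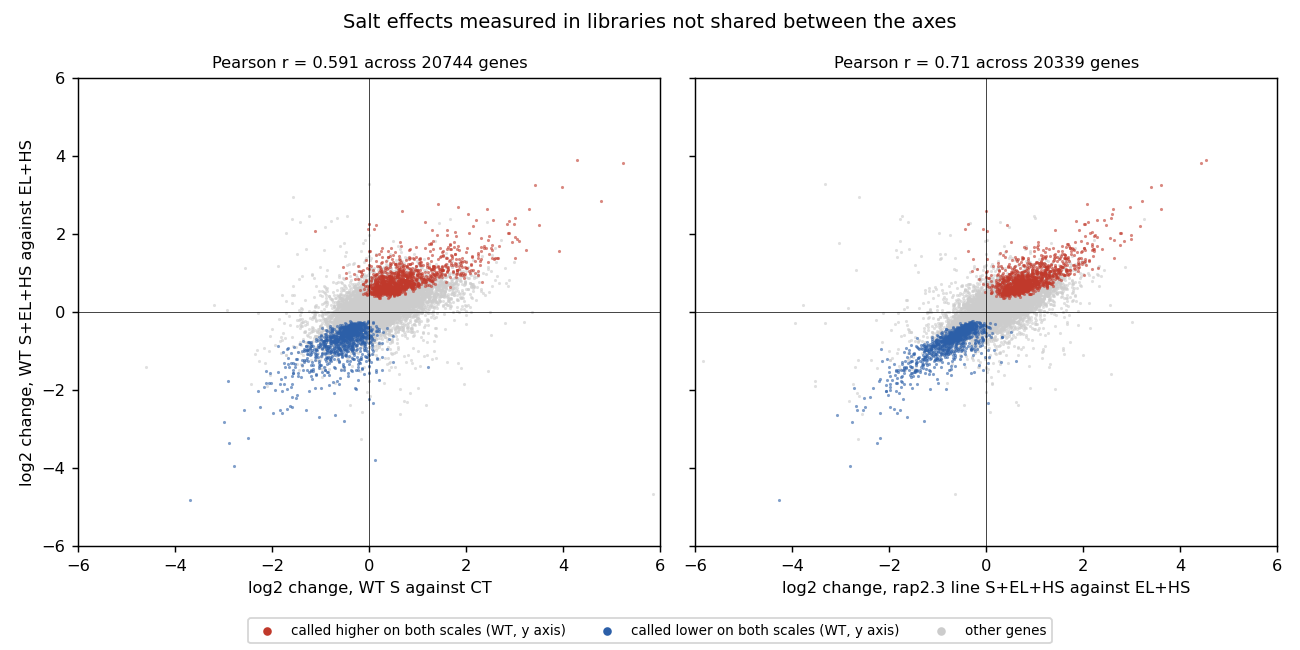
Log2 change with added salt in WT under light plus heat (y axis) against the log2 change of WT S against CT (left x axis) and of the same comparison in the libraries labelled rap2.3 (right x axis); each point is 1 gene, red and blue mark genes called higher or lower on both scales on the y axis, and 1 gene lies outside each panel. Most coloured points share their sign on both axes, with r = 0.591 on the left and 0.71 on the right.

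Of the 20 LEA, RD29, COR and dehydrin genes 10 were called higher at control (median log2 change 0.98) and 10 under light plus heat (1.07). Of all genes 10.7% and 5.92% were. KIN1 and ERD10 are given as single members and do not stand for the list. KIN1 was at 0.898 ± 0.537 FPKM under CT, 27.98 ± 10.2 under S, 34.9 ± 5.88 under EL+HS and 105 ± 3.63 under S+EL+HS (SD, n = 3). ERD10 was at 13.6 ± 3.05, 71.6 ± 17.7, 91.9 ± 5.21 and 158 ± 9.08 FPKM in the same order. For both genes the mean under EL+HS was above the mean under S. The test of the difference between the salt effects called 0 of 20744 genes for light plus heat minus control (1893 at an unadjusted p under 0.05) and 0 for light plus heat minus light (1577 at an unadjusted p under 0.05; 0% in both). ERD10 had one of the 3 smallest p for the former, with a difference of -1.53 ± 0.25 (SE) and a limma adjusted p of 0.0711. The others were scpl31, a serine carboxypeptidase-like gene (-2.62 ± 0.43, adjusted p 0.0711), and AT5G16980, of the zinc-binding dehydrogenase family (1.54 ± 0.27, adjusted p 0.0792). Against light alone they were the galactinol synthase GolS4 (-2.27 ± 0.40), the sugar transporter SWEET4 (-1.79 ± 0.34) and the RNA gene AT1G05047, each with a limma adjusted p of 0.215. AT1G05047 had a mean of 0 FPKM in EL, S+EL and EL+HS and of 1.32 FPKM in S+EL+HS. Light-harvesting genes fell in 15 of 23 cases for salt at control and in 20 of 23 under light plus heat (5.17% and 4.75% of all genes).

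Against heat alone 13 genes (0.0627%) differed in their salt effect, 9 upward (0.0434%) and 4 downward (0.0193%), and 4144 had an unadjusted p under 0.05. PTAC12, a protein of the plastid transcription complex, went from 34.1 ± 4.91 to 22.1 ± 1.66 FPKM with salt under heat and from 19.9 ± 2.22 to 24.05 ± 0.771 FPKM under light plus heat (SD, n = 3; difference 0.87 ± 0.15 (SE), limma adjusted p 0.0455). PAM68, a factor of photosystem II assembly, went from 36.2 ± 3.85 to 20.05 ± 2.74 FPKM under heat and from 25.1 ± 0.388 to 27.9 ± 0.134 FPKM under light plus heat. RFC3, of the ribosomal protein S6 family, went from 53.5 ± 12.97 to 27.7 ± 2.14 FPKM under heat and from 24.5 ± 5.05 to 33.1 ± 0.954 FPKM under light plus heat. The means of all 3 were lower with salt under heat and higher with salt under light plus heat. The downward differences with the smallest p were those of PAP8, a purple acid phosphatase, the NAC factor gene NAC083 and the RAB GTPase gene RAB1C. PAP8 went from 14.4 ± 1.18 to 40.1 ± 2.31 FPKM under heat and from 33.3 ± 8.13 to 32.6 ± 5.55 FPKM under light plus heat. Leaving out 1 of the 12 libraries called 0 genes in 9 cases, but 1576 without HS replicate 1, 465 without EL+HS replicate 1 and 324 without S+HS replicate 1.

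The same comparison was made in the libraries labelled rap2.3, which share none with WT. RAP2.3 itself was higher there than in WT, at 421 ± 37 FPKM under EL+HS and 399 ± 25.6 FPKM under S+EL+HS (SD, n = 3), against 54.3 ± 6.42 and 75.1 ± 12.2 FPKM in WT. The group is therefore named by its label only. In these libraries 2539 genes (12.3%) were called higher and 1243 (6.04%) lower on both scales. Of 1222 genes that rose in WT and were tested in both, 780 (63.8%) were also called higher, and of 980 that fell 731 (74.6%) were also called lower, with 0 opposite calls in either direction. Pearson's r across 20339 genes was 0.71. Among the named genes 9 of the 10 increases and 8 of the 10 decreases were called the same way. In the gene lists, 19 of 23 light-harvesting and Rubisco genes and 52 of 87 tested mitochondrion-encoded genes fell, and 4 of 20 LEA, RD29, COR and dehydrin genes rose.

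No gene of 21322 passed for a difference in the salt effect between the genotypes (0%, with 983 at an unadjusted p under 0.05). The 3 smallest p belonged to ING1, a PHD finger protein that reads histone marks (1.01 ± 0.21 (SE)), AT3G10986 (1.65 ± 0.36) and the RNA gene AT1G05203, listed at 0 in some groups, with a limma adjusted p of 0.541 each. In WT the mean of ING1 was 14.3 ± 1.597 FPKM under EL+HS and 9.71 ± 0.793 FPKM with salt (SD, n = 3). In the libraries labelled rap2.3 these means were 8.04 ± 1.32 and 11.9 ± 2.75 FPKM. The title genes had differences of -0.53 for RAP2.3, 0.58 for MYB51 and -0.04 for SIG3, each with a limma adjusted p of 1. A p that misses the threshold does not show that the genotypes responded alike.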

How the data were processed

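Messenger RNA was sequenced from whole seedlings in 48 libraries, 16 groups of 3. The authors deposited 1 table of FPKM values per genotype, and HISAT2, Cufflinks and TAIR10 are named in the submitters' processing notes, with no roles or versions. Depth is unknown, and strand use is not given in the sources used here. The deposited FPKM held 2028 positive values too small to be measurements, so an exact 0 can be a failed estimate and a gene is said to be listed at 0. The labels call replicates biological repeats of pooled seedlings, and p-values measure the spread between those pools. WT libraries (24) were fitted with limma 3.58.1 in R 4.3.3 (lmFit, eBayes with trend) on log2(FPKM + 1), with 1 mean per group, for genes at 1 FPKM or more in at least 3 libraries. The threshold was a Benjamini-Hochberg adjusted p of 0.05 over all genes tested. The fit was repeated on FPKM divided by size factors, each the median over 15370 genes of the ratio to the geometric mean. Genes were named by rule: the 10 largest increases and 10 largest decreases called on both scales, at 5 FPKM or more in the higher group and without overlap, the 3 smallest p per difference of salt effects (per direction where genes were called), and members of the gene lists. Members and lists were chosen with earlier results of these data known, so their counts are a description. Fits of all 24 libraries labelled rap2.3, and of all 48 for the genotype difference, used the same settings. The alternatives were a pseudocount of 0.1, no filter, both rescalings, the compared libraries alone, replicate number as a block, and leaving out each compared library. Deviations of same-numbered EL+HS and S+EL+HS libraries correlated at 0.117, -0.043 and 0.101, and those of differently numbered libraries between -0.169 and 0.069. Replicate numbers were not taken to pair samples, but these values do not decide whether they do. RefSeq's TAIR10.1 annotation named 32539 of 32824 identifiers, and promoter letters were read from that genome. One result is not reported here. Plots used Python 3.11.15 and matplotlib 3.10.9.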

Additional observations from a re-analysis of the deposited data

Results flagged for a closer look

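For 6 genes the effect of salt under light plus heat differed from its effect under heat alone by limma's test of that difference (adjusted p 0.0455 each, 24 WT libraries). The difference in log2 change was 0.87 for PTAC12, 0.97 for PAM68 and 1.34 for RFC3. It was -1.44 for PAP8, -0.98 for NAC083 and -0.76 for RAB1C, with rescaled adjusted p of 0.0311, 0.0483 and 0.0502. NAC083 had 86.7 ± 9.10 FPKM under EL+HS and 73.5 ± 6.15 FPKM under S+EL+HS, against 47.7 ± 6.48 FPKM under HS and 80.7 ± 8.15 FPKM under S+HS (SD, n = 3). RAB1C had 203 ± 19.6, 169 ± 5.43, 121 ± 16.5 and 172 ± 10.7 FPKM in the same order. Of these genes PAP8 overlaps no other annotated gene, and the other 5 do. With replicate number as a block 0 genes passed.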

How the results depend on the processing

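On the deposited scale, across the 12 alternatives of the WT comparison, the 20 named genes kept their direction. The naming rule largely fixed this beforehand, since it required no overlap of libraries and the same direction on both scales. Of the 20 named genes 2 missed the threshold in some alternatives (AT3G03535 in 3, AT2G44130 in 6). Among 345 other list members 0 reversed, 51 lost and 51 gained that threshold in at least 1 alternative. Of 63 other list members that rose or fell on both scales, 31 lost that call in at least 1 of the 10 alternatives run on both. The 3901 genes called on the deposited scale became 1819 to 3714 when 1 library was left out. Of 2213 called on both scales, 1207 to 2017 were, with 601 to 1164 higher and 585 to 853 lower. In the libraries labelled rap2.3 the count of 6417 became 4321 to 5724. With replicate number as a block the counts were 3512 in WT (2007 on both scales) and 6098 in the libraries labelled rap2.3. Whether the numbers pair the samples is not known. For light plus heat minus control the 0 genes became 4 with a pseudocount of 0.1, 2 with no filter, 12 with the compared libraries alone and 0 to 17 without 1 library. For light plus heat minus light they became 4 with no filter, 2 with the compared libraries alone and 0 to 5 without 1 library. For light plus heat minus heat the 13 genes became 27 with a pseudocount of 0.1, 45 with nuclear sums equalised, 2 with the compared libraries alone, 0 with the replicate block and 0 to 1576 without 1 library. The genotype difference gave 0 to 1 without 1 library. The difference in FPKM share was -0.0101 percentage points for chloroplast-encoded genes (-0.0213 to 0.0017 without 1 library) and -0.0407 for mitochondrion-encoded genes (-0.0791 to -0.017). The cause of these changes was not tested. The unknown depth limits what can be said of genes near 0 FPKM.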

Other observations

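A list of 8 PDF1 defensins and their regulators was written after the values had been seen and describes only. PDF1.2, PDF1.2b, PDF1.2c and PDF1.3 were called lower in WT under light plus heat, in WT at control and in the libraries labelled rap2.3. PDF1.4, a more distant defensin, was between 26.2 and 45.9 FPKM under EL+HS, with replicate 1 at 36.6, and under S+EL+HS at 20.8, 36.02 and 28.9 FPKM, and was not called. ORA59, the ethylene response factor that activates PDF1.2, was between 0.609 and 1.64 FPKM under EL+HS and between 0.895 and 1.31 FPKM with salt, and was not called. PDF1.1 was listed at 10.7 FPKM in S+EL+HS replicate 3 and at 0 in the other 5 libraries, and ERF1 was below the filter.

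Salt called 17 of the 20 LEA, RD29, COR and dehydrin genes higher under light alone (median log2 change 1.598), 10 at control (0.98), 10 under heat (0.64) and 10 under light plus heat (1.07). Of all genes 7.14%, 10.7%, 11.4% and 5.92% were called higher in the same order. Of the 9 clade A PP2C phosphatases it called 7 higher under light, 5 under heat, 0 at control and 0 under light plus heat. For single genes the difference between light plus heat and light passed for 0 of 20744 genes in limma's test, with 1577 at an unadjusted p under 0.05.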
